A study of Mus musculus with 9 samples.

Results

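Colony-stimulating factors and interleukins are secreted proteins through which a tumour cell can act on blood-forming and immune cells. The 10 genes described here were chosen by name, out of the 54532 genes in the deposited table: Csf1, Csf2, Csf3, Il1a, Il6, Il11, Il23a, Il33, Lif and Tnf. The choice was made by name, but with earlier results of these data known. Polyadenylated RNA was sequenced from 4T1 cells, an established line from a mouse mammary carcinoma, in 9 libraries. All cells grew in high-glucose DMEM with serum and antibiotics. Control cells received medium. Cu_TCPP cells received Cu-TCPP(Fe)-PEG, which the labels tie to consumed glutathione (GSH), and Au_TCPP cells received Au/Cu-TCPP(Fe)-PEG, tied to a glucose-like oxidase activity as well. Each group had 3 libraries, the treatments lasted 24 h, and the doses are not stated. No label says whether the replicates are separate cultures; the p-values then measure only how these samples spread, which may be technical.

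Csf1 (M-CSF), Csf2 (GM-CSF) and Csf3 (G-CSF) encode growth factors of the macrophage, mixed myeloid and neutrophil lineages. Il1a and Il33 belong to the IL-1 family, whose members act as alarm signals after cell damage. Il6, Il11 and Lif encode cytokines that signal through the shared receptor chain gp130, Il23a encodes the p19 subunit of IL-23, and Tnf encodes tumour necrosis factor. Many of these genes are switched on by NF-kB and AP-1 at their promoters, and many of their mRNAs carry AU-rich elements in the 3′ UTR through which the mRNA is degraded.

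AU-rich elements are repeats of the pentamer ATTTA. The 30 bases of the 3′ UTR with the most pentamers are shown for 6 genes that differ in how they responded, written as DNA from the GENCODE M21 transcripts with the pentamers in capitals. Positions count from the first base after the stop codon.
Csf2, bases 230 to 259: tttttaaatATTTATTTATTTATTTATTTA
Csf3, bases 24 to 53: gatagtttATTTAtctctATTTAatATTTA
Il1a, bases 573 to 602: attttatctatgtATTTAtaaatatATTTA
Il6, bases 129 to 158: tttaattatttttaATTTAttgataATTTA
Il11, bases 32 to 61: ctttaaaaccagatcttATTTATTTATTTA
Tnf, bases 437 to 466: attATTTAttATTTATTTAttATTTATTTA

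Csf2 held 9 pentamers in a 3′ UTR of 317 nt, or 28.4 per kb, and Il6 held 6 in 427 nt, or 14.1 per kb. Tnf, Il23a, Csf3 and Il11 followed with 10.5, 9.13, 8.97 and 8.38 per kb. Il1a, Lif, Csf1 and Il33 had 2.72, 2.20, 1.89 and 1.79 per kb. The median of 20603 protein-coding genes was 1.20 per kb, and 63.3% of them held at least 1 pentamer. The longer element TTATTTATT, found in 7.15% of those genes, occurred 5 times each in Il11 and Tnf, 4 times in Csf2, 2 times in Lif and once in Il23a.

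**Figure D1:**
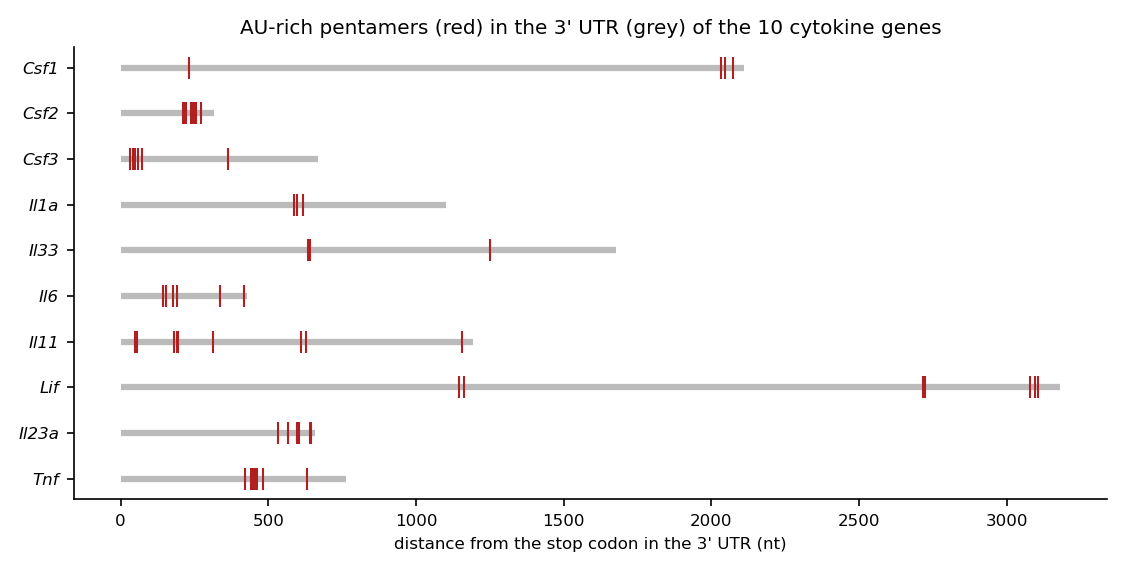
Position of each ATTTA pentamer (red marks) along the 3′ UTR (grey bars) of the 10 genes; the horizontal axis is the distance from the stop codon in nt. The 9 pentamers of Csf2 lie within a 3′ UTR of 317 nt, while the 7 of Lif are spread over 3180 nt.

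Promoter sequence was matched in the RefSeq table (GRCm38.p6) for 8 of the 10 genes, all but Csf3 and Il23a. The AP-1 element TGANTCA, which reads the same on both strands, lay in the 250 bases before to 50 after a start of Il1a, Il6, Il11 and Lif. Of all 32851 such windows 7.81% hold it. An NF-kB element, searched by name on both strands, was found for Csf1, Il6 and Lif, against 8.46% of all windows. The cyclic-AMP element TGACGTCA, present in 1.79% of windows, and the heat shock element GAANNTTC, present in 7.86%, matched in none of the 8 genes. The NRF2 element TGACNNNGC, present in 12.4%, matched for Csf2 and Lif, and TATAAA, present in 13.6%, for Il1a, Il33 and Tnf. The RefSeq start of Csf2 lies upstream of the gene end in the deposited table, so its window does not cover the stretch next to that end.

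The 250 bases upstream of 3 starts are shown because these 3 genes rose with Au_TCPP and hold an AP-1 match. Being picked on both traits, they cannot show whether the traits go together. Lif also holds a match, but its change with Au_TCPP against Control did not reach the threshold used below. Csf2 rose with Au_TCPP, and its window holds no AP-1 match. Il6 had enough counts to be tested only through the Au_TCPP libraries. Capitals mark motif matches. For Il1a they are TATAAA and TGACTCA, for Il6 TGAGTCA and the NF-kB match GGGATTTTCC, and for Il11 TGAGTCA, at its second annotated start. The intervals are chr2:129309973-129310222 on the minus strand, chr5:30012864-30013113 on the plus strand and chr7:4778142-4778391 on the minus strand.
Il1a: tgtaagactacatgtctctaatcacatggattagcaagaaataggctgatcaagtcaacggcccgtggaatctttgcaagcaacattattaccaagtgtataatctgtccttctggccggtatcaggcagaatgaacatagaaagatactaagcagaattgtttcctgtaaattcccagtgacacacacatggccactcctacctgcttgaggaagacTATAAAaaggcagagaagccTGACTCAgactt
Il6: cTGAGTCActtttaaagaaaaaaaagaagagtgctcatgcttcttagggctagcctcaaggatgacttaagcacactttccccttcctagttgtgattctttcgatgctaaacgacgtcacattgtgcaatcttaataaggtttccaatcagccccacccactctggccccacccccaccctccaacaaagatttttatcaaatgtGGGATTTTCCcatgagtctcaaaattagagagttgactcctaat
Il11: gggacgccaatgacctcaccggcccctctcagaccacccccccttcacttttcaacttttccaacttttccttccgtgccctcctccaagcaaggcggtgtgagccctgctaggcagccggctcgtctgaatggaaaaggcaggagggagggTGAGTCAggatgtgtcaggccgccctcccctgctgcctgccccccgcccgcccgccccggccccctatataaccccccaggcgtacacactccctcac
A match describes these letters, not binding of a factor.

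Total counts lay between 15477324 and 17494776 per library, and 13915 genes had enough counts to be tested. Of the 10 genes, 8 were tested; Il33 and Tnf did not pass the filter on low counts. Il6 passed only through the Au_TCPP libraries, so it had to differ, and its tests are given as a description. Levels are CPM, read counts per library scaled to a common total with TMM factors, as mean ± SD with n = 3. Fold changes, standard errors (SE) and adjusted p-values are from edgeR's quasi-likelihood test with Benjamini-Hochberg adjustment over all genes tested, and a gene was called at an adjusted p under 0.05. In Au_TCPP replicate 2 mitochondrially encoded genes took 2.37% of the counts, against 1.09 to 1.47% in the other libraries. That library had the lowest level of the 3 Au_TCPP libraries for 8 of the 10 genes, all but Csf3 and Tnf. For Il6 and Il33 this order rests on few counts. The share of all genes that were lowest in that library was not counted. The part of this library difference in the results was not tested. Scaling by library totals alone moved the median log2 fold change of all genes from -0.01 to -0.43 for Au_TCPP against Control and from 0.04 to -0.33 for Au_TCPP against Cu_TCPP. Changes below are relative to that shift.

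Of the 10 genes, edgeR called Csf1, Csf2, Il1a and Il23a lower with Cu_TCPP than in Control, and none higher. Among all genes tested 40.4% were called in that comparison, 21.2% lower and 19.2% higher. With Au_TCPP, Csf2, Il1a, Il11 and Il23a were higher than in Control and Csf1 and Csf3 lower. There 69.1% of all genes were called, 34.4% higher and 34.7% lower. Against Cu_TCPP directly, Au_TCPP had higher Csf2, Il1a, Il11, Il23a and Lif and lower Csf3. There 65.9% of all genes were called, 34.6% higher and 31.3% lower. Il6 was also higher with Au_TCPP in both comparisons. It passed the filter only through those libraries, so it is not set against these shares. Csf2, Il1a and Il23a thus changed in opposite directions with the 2 materials, each relative to the same Control libraries. The share of all genes called in opposite directions was not counted, so this describes these genes only. Below, overlap of libraries only describes each gene, because the share of all genes whose groups separate was not counted. In these bulk samples, fewer expressing cells and less RNA per cell cannot be told apart.

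**Figure D2:**
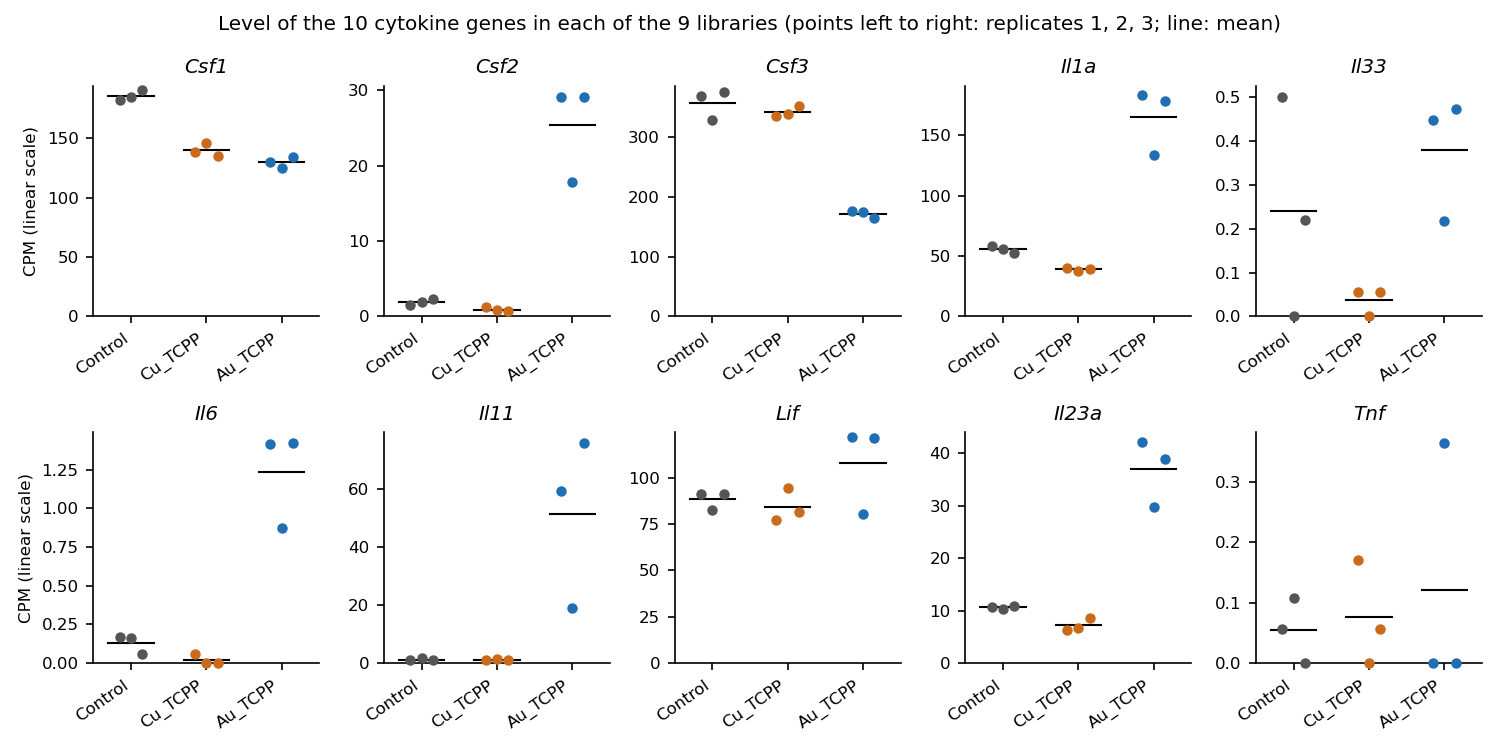
Level of each of the 10 genes in CPM (vertical axes, linear scales that differ between genes) in the 3 groups (horizontal axes); points are libraries, replicates 1 to 3 from left to right, and lines are group means. For Csf2, Il1a, Il11 and Il23a all 3 Au_TCPP libraries lie above the other 6, and for Csf3 all 3 lie below them. The same holds for Il6 upward, which passed the filter on low counts only through Au_TCPP. The share of all genes that separate in this way was not counted.

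Among the colony-stimulating factors, Csf2 changed most. Csf2 (ENSMUSG00000018916, mm10 chr11:54247271-54249667, minus strand) had 27, 36 and 41 counts in the Control libraries, 22, 15 and 12 with Cu_TCPP and 390, 245 and 369 with Au_TCPP. These are 1.90 ± 0.376, 0.907 ± 0.301 and 25.4 ± 6.51 CPM. All Au_TCPP libraries were far above the others, and the Cu_TCPP libraries did not overlap Control. Csf2 rose 13.3-fold with Au_TCPP against Control (log2 3.73, SE 0.24, edgeR adjusted p = 5.9e-09) and was 27.8-fold higher than with Cu_TCPP (adjusted p = 1.6e-09). With Cu_TCPP it fell 2.09-fold against Control (log2 -1.06, SE 0.32, adjusted p = 0.018). That last call was lost without Control replicate 3, Cu_TCPP replicate 2 or Cu_TCPP replicate 3 (edgeR adjusted p = 0.076, 0.073 and 0.074). The predicted antisense gene Gm12223 overlaps Csf2 and had 17 counts over all 9 libraries and whether counting used strand is not stated.

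Csf3, the growth factor of neutrophils, went the other way. Csf3 (ENSMUSG00000038067, mm10 chr11:98701263-98703629, plus strand) had 369, 328 and 375 CPM in Control, 335, 338 and 352 with Cu_TCPP and 176, 175 and 165 with Au_TCPP. The Au_TCPP libraries lay well below all others, and Control and Cu_TCPP overlapped. Csf3 fell 2.08-fold with Au_TCPP against Control (log2 -1.06, SE 0.08, edgeR adjusted p = 5.6e-08) and was 1.99-fold lower than with Cu_TCPP (adjusted p = 1.1e-07). Cu_TCPP against Control gave a log2 fold change of -0.06 (SE 0.08, adjusted p = 0.57).

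Csf1, the ligand of the macrophage receptor CSF1R, fell with both materials. Csf1 (ENSMUSG00000014599, mm10 chr3:107741048-107760469, minus strand) had 182, 184 and 191 CPM in Control, 138, 146 and 135 with Cu_TCPP and 130, 125 and 134 with Au_TCPP. The 6 treated libraries were all below the 3 Control libraries. It fell by 0.41 on the log2 scale with Cu_TCPP (SE 0.08, edgeR adjusted p = 0.00072) and by 0.52 with Au_TCPP (SE 0.08, adjusted p = 2.8e-05). The 2 materials differed by a log2 fold change of -0.11 (SE 0.08, adjusted p = 0.23), which was called with library totals alone (-0.48, adjusted p = 2.3e-05).

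In the IL-1 family, Il1a, which encodes IL-1α, a cytokine active already as its precursor, was the abundant member. Il1a (ENSMUSG00000027399, mm10 chr2:129299610-129309972, minus strand) had 58.2, 55.5 and 52.9 CPM in Control, 40.3, 38.0 and 39.4 with Cu_TCPP and 184, 134 and 179 with Au_TCPP. The 3 groups did not overlap, with Cu_TCPP lowest. Il1a fell 1.42-fold with Cu_TCPP (log2 -0.50, SE 0.11, edgeR adjusted p = 0.0022) and rose 2.98-fold with Au_TCPP (log2 1.57, SE 0.11, adjusted p = 1.3e-08). Au_TCPP was 4.22-fold higher than Cu_TCPP (adjusted p = 1.1e-09). Gm14023, which overlaps Il1a on the opposite strand, had 149 counts over the 9 libraries.

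Il1b, the gene of the related cytokine IL-1β, lies 54.6 kb from Il1a on the same strand. Like Il1a it fell with Cu_TCPP, but it also fell with Au_TCPP, where Il1a rose. Il1b had 36, 64 and 42 counts in Control, 14, 18 and 12 with Cu_TCPP and 4, 10 and 5 with Au_TCPP. It fell 3.17-fold with Cu_TCPP (edgeR adjusted p = 0.0014) and 5.36-fold with Au_TCPP (adjusted p = 6.6e-05). Against Cu_TCPP the log2 fold change with Au_TCPP was -0.76 (SE 0.45, adjusted p = 0.15), while that of Il1a was 2.08 (SE 0.11).

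Il33, an alarm cytokine kept in the nucleus, was near the limit of detection. Il33 (ENSMUSG00000024810, mm10 chr19:29925114-29960718, plus strand) had 9, 0 and 4 counts in Control, 1, 0 and 1 with Cu_TCPP and 6, 3 and 6 with Au_TCPP. Control overlapped both other groups, and its replicates spread from 0 to 9 counts. The ratio of summed levels was 10.2 for Au_TCPP over Cu_TCPP, with an exact conditional 95% interval of 2.37 to 92.0 that covers counting error only. Cu_TCPP over Control was 0.156 (0.017 to 0.687), also for counting error only and within a Control group that held a library with 0 counts. Au_TCPP over Control was 1.59 (0.705 to 3.63), so no difference was detectable there at this depth.

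Among the cytokines that signal through gp130, Il11 had the largest fold change of Au_TCPP against Control. Il11, whose product acts on epithelial and stromal cells and on platelet formation, is ENSMUSG00000004371 (mm10 chr7:4772373-4782857, minus strand). It had 18, 30 and 16 counts in Control, 18, 26 and 16 with Cu_TCPP and 792, 262 and 959 with Au_TCPP. The Au_TCPP libraries held 59.2, 19.1 and 75.7 CPM, all above the highest of the other 6 libraries, 1.62 CPM. Their mean of 51.3 ± 29.1 CPM was 43.6-fold above Control at 1.17 ± 0.397 CPM (log2 5.45, SE 0.59, edgeR adjusted p = 5.6e-05). It was 46.0-fold above Cu_TCPP at 1.10 ± 0.248 CPM (adjusted p = 5.9e-05). Replicate 2 was the low one, and without it the log2 fold change against Control was 5.82 (SE 0.18). Cu_TCPP against Control gave -0.08 (SE 0.86, adjusted p = 0.95). That SE rests on a spread estimated together with the Au_TCPP libraries. In a fit of the 6 Control and Cu_TCPP libraries alone the SE was 0.34.

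Il6 stayed rare even where it was detected. Il6 (ENSMUSG00000025746, mm10 chr5:30013114-30019981, plus strand), the gene of the acute-phase cytokine IL-6, had 3, 3 and 1 counts in Control, 1, 0 and 0 with Cu_TCPP and 19, 12 and 18 with Au_TCPP. The 3 Au_TCPP libraries lay above all others, at 1.42, 0.874 and 1.42 CPM. The ratio of summed levels was 9.63 for Au_TCPP over Control (exact conditional 95% interval 4.34 to 25.2, counting error only). Over Cu_TCPP, which held 1 count, it was 66.7 (11.4 to 2688). Cu_TCPP over Control was 0.144 (0.0032 to 1.12).

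Lif, which encodes leukaemia inhibitory factor, changed little. Lif (ENSMUSG00000034394, mm10 chr11:4257557-4272514, plus strand) had 91.3, 82.5 and 91.1 CPM in Control, 77.0, 94.5 and 81.6 with Cu_TCPP and 122, 80.5 and 121 with Au_TCPP. Replicates 1 and 3 of Au_TCPP were above all other libraries, and replicate 2 lay among them. Lif was called 1.28-fold higher with Au_TCPP than with Cu_TCPP (log2 0.36, SE 0.14, edgeR adjusted p = 0.034), a call lost under 11 of 19 alternatives and turned to a log2 fold change of -0.03 with library totals alone. The authors' deposited table gave an adjusted p of 0.13 for it. Against Control the log2 fold change was 0.29 (SE 0.14, adjusted p = 0.073), -0.14 with library totals alone and 0.44 without Au_TCPP replicate 2 (adjusted p = 9.5e-05).

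Il23a, whose product pairs with the p40 subunit to form IL-23, followed the pattern of Il1a. Il23a (ENSMUSG00000025383, mm10 chr10:128296139-128298752, minus strand) had 10.7, 10.4 and 10.9 CPM in Control, 6.29, 6.69 and 8.53 with Cu_TCPP and 42.2, 29.9 and 38.9 with Au_TCPP. The 3 groups did not overlap. It rose 3.48-fold with Au_TCPP against Control (log2 1.80, SE 0.14, edgeR adjusted p = 5.8e-08) and was 5.15-fold higher than with Cu_TCPP (adjusted p = 5.8e-09). It fell 1.48-fold with Cu_TCPP (log2 -0.57, SE 0.16, adjusted p = 0.0096), a call lost without Cu_TCPP replicate 1 (adjusted p = 0.052). Il12b, the gene of p40, had 0 counts in all 9 libraries.

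Tnf was at most just detected. Tnf (ENSMUSG00000024401, mm10 chr17:35199381-35202007, minus strand) had 1, 2 and 0 counts in Control, 3, 0 and 1 with Cu_TCPP and 0, 5 and 0 with Au_TCPP. The groups overlapped, and the 95% intervals of all 3 ratios included 1. All 5 counts of Au_TCPP came from replicate 2.

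**Figure D3:**
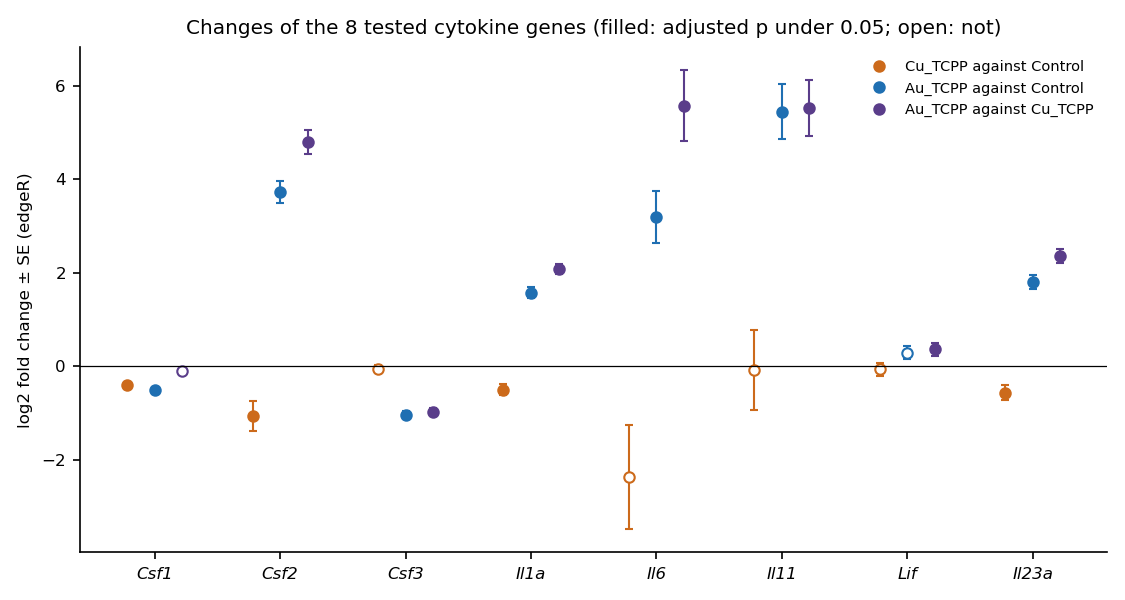
Log2 fold change with its SE (vertical axis) of the 8 tested genes (horizontal axis) in the 3 comparisons; filled points had an adjusted p under 0.05, open ones not. Csf2, Il1a and Il23a lie below 0 for Cu_TCPP against Control and above 0 for Au_TCPP against Control, and Csf3 fell by 1.06 with Au_TCPP. The share of all genes with such opposite changes was not counted.

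Divided by gene length, Csf3 had the highest level in all 3 groups, at 253, 242 and 122 CPM per kb in Control, Cu_TCPP and Au_TCPP. In Control, Csf1 followed at 35.2, Il1a at 28.1, Lif at 20.3, Il23a at 4.73, Csf2 at 2.37 and Il11 at 0.579 CPM per kb, with no overlap of libraries between neighbours in this order. Il33, Il6 and Tnf came last, and their libraries overlapped. With Cu_TCPP the order down to Il11 was the same, but Il1a at 19.9 and Lif at 19.4 CPM per kb overlapped.

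With Au_TCPP the order changed. Il1a moved to the second place at 83.8 CPM per kb, Csf2 to the third at 31.7 and Il11 to the fourth at 25.5. Csf2, Il11, Lif at 24.8 and Csf1 at 24.6 CPM per kb overlapped between libraries and cannot be ranked against each other. The summed level of the 10 genes was 664 to 724 CPM in Control, 600 to 625 in Cu_TCPP and 743.9, 582.8 and 744.3 in Au_TCPP. Csf3 made up 50.9% of that sum in Control, 55.6% in Cu_TCPP and 25.3% in Au_TCPP. Il1a made up 7.94%, 6.39% and 23.9%, and Il11 0.168%, 0.179% and 7.13%.

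**Figure D4:**
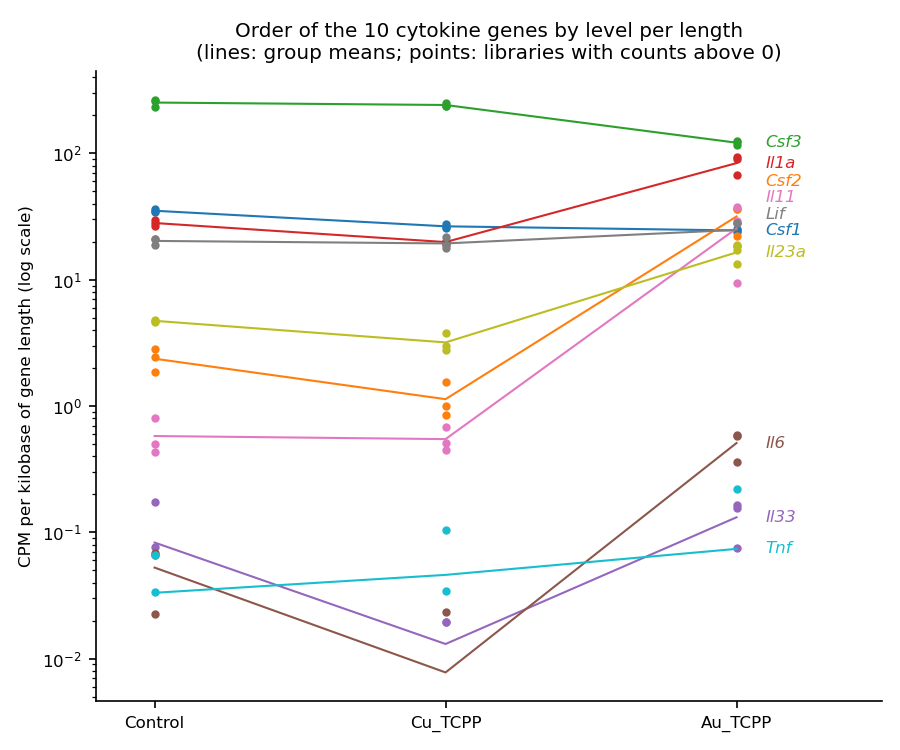
Level per kilobase of gene length (vertical axis, log scale) of the 10 genes in the 3 groups (horizontal axis); lines join group means, points are libraries with counts above 0, and gene names are spread apart to be legible. Csf2 and Il11 rise from 2.37 and 0.579 CPM per kb in Control into the range of Lif and Csf1 in Au_TCPP, and Csf3 stays highest.

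Among the 10 genes the most alike pair over the 9 libraries was Il1a and Il23a, with a root mean square difference of 0.17 in log2 CPM centred per gene. Of 9655 other genes, those nearest to Il1a were Htatip2 (0.09) and Csn3 (0.11), and to Il23a Trib1 (0.14) and Btg1 (0.17). Dnajb9 (0.36) and Egr2 (0.38) were nearest to Csf2, and Dusp1 (0.45) and Ppp1r15a (0.50) to Il11. Nearest to Il6 were Dll1 (0.26) and Oasl1 (0.29). For the genes that fell, Ehmt1 and Snrnp200 (both 0.06) were nearest to Csf3 and Sugp1 (0.05) and Mapkapk3 (0.06) to Csf1. Tgfb1 (0.06) and Apobr (0.09) were nearest to Lif. The distances are descriptions, and smaller ones go with genes that varied less.

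The other cytokine genes beside the members stayed low. Il3, 15.6 kb from Csf2, had 1 count in the Control libraries, 0 in Cu_TCPP and 4 in 1 Au_TCPP library. Osm, 16.5 kb from Lif, had 2, 1 and 2 counts in Au_TCPP. Lta and Ltb, 1.16 and 3.06 kb from Tnf, did not pass the filter.

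RNA of several receptors of these cytokines was at or near 0. Of 16 receptor genes, 8 were tested. The receptor of M-CSF, Csf1r, had at most 2 counts in any library, Csf2ra had 0 in all 9, Csf3r had 3 in 1 library and 0 in the others, and Il23r had 0. Cu_TCPP lowered 5 of the 8 and raised none, with a median log2 fold change of -0.62 against -0.01 for all genes. Among all genes tested 21.2% were called lower and 19.2% higher in that comparison. Il6ra, the IL-6 receptor, fell 1.89-fold from 44.5 to 23.5 CPM (edgeR adjusted p = 2.4e-05). Il6st, the gene of gp130, fell 1.41-fold from 145 to 103 CPM, and Tnfrsf1b, TNF receptor 2, fell 1.79-fold from 79.7 to 44.4 CPM. Il1r1 and Il12rb1 fell 1.66-fold and 2.12-fold.

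With Au_TCPP, 5 of the 8 tested receptor genes were lower than in Control and 2 higher, with a median of -0.61. All genes tested were called lower in 34.7% and higher in 34.4% of cases. Il6ra fell 4.10-fold to 10.8 CPM (edgeR adjusted p = 3.2e-09) and Il6st 1.73-fold to 84.1 CPM, in the libraries where Il6 and Il11 were higher. The 2 higher ones, Il1rap and Tnfrsf1a, had log2 fold changes of 0.27 and 0.32, and neither was called with library totals alone. Against Cu_TCPP, Il6ra was 2.17-fold lower, and the calls of Il6st (-0.29), Tnfrsf1a (0.34) and Tnfrsf1b (0.37) ended or changed sign with offsets for gene length or with library totals alone.

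Of 17 genes for decoys, antagonists and SOCS or other inhibitors of cytokine signalling, 15 were tested. Cu_TCPP raised 4 and lowered 4, and Au_TCPP raised 7 and lowered 5 (8 lower with library totals alone, 3 with offsets for gene length). Over all genes tested, Cu_TCPP raised 19.2% and lowered 21.2%, and Au_TCPP raised 34.4% and lowered 34.7%. Cish and Socs2, feedback inhibitors of STAT5 signalling, fell 3.16-fold and 1.80-fold with Cu_TCPP and rose 1.91-fold and 1.72-fold with Au_TCPP. Socs3, the feedback inhibitor of gp130, rose 1.99-fold with Au_TCPP, from 47.1 to 93.9 CPM (edgeR adjusted p = 9.4e-06). With Cu_TCPP its log2 fold change was 0.13 (adjusted p = 0.47).

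Of 22 genes of JAK, STAT, NF-kB and AP-1 signalling, Cu_TCPP raised 3 and lowered 7, and Au_TCPP raised 7 and lowered 13. The shares of all genes tested were 19.2% raised and 21.2% lowered with Cu_TCPP, and 34.4% and 34.7% with Au_TCPP. The 3 raised with Cu_TCPP were 6 without Au_TCPP replicate 2 and 7 with offsets for gene length, and the 7 raised with Au_TCPP were 3 with library totals alone. The kinase gene Tyk2 fell by 2.02 on the log2 scale with Au_TCPP and Stat5b fell by 1.01, while Myd88, the adaptor of IL-1 receptors, rose by 1.46 (edgeR adjusted p = 1.1e-08). Jak2 and Stat3, which carry signals of gp130, fell by 0.66 and 0.61 on the log2 scale with Cu_TCPP.

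Of 23 transcription factors known from cytokine promoters, Au_TCPP raised 16 and lowered 5 against Control, with a median log2 fold change of 0.59. The genes with the smallest p were AP-1 and ATF members. Jun rose from 47.3 to 835 CPM, Fos from 2.31 to 71.8 CPM, Fosb from 10.2 to 151 CPM and Atf3 from 12.8 to 1419 CPM, the last with an SD of 376 CPM. Of the NF-kB subunits, Rela was higher (log2 1.08) and Nfkb1 and Nfkb2 lower (-0.54 and -0.48), with Nfkb1 not called under offsets for gene length. Cu_TCPP raised 5 and lowered 7, with a median of -0.14. Fosl1 rose from 86.4 to 420 CPM with Cu_TCPP and Cebpd fell from 31.3 to 10.1 CPM. Beside these list counts, Au_TCPP raised 34.4% and lowered 34.7% of all genes tested, and Cu_TCPP raised 19.2% and lowered 21.2%.

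Of 15 proteins that bind AU-rich or stem-loop elements of cytokine mRNA, Au_TCPP raised 8 and lowered 5 (2 with offsets for gene length), with a median log2 fold change of 0.57. Zfp36, whose product tristetraprolin binds the pentamers shown above and promotes decay, had 17.6 CPM in Control, 23.4 in Cu_TCPP and 191 in Au_TCPP (10.9-fold against Control, edgeR adjusted p = 9.1e-10). Its relative Zfp36l1 rose 4.10-fold with Au_TCPP and fell 1.76-fold with Cu_TCPP. Zc3h12a, the endonuclease Regnase-1, which cleaves stem-loops of cytokine mRNA, fell 2.84-fold with Au_TCPP, from 63.1 to 22.2 CPM, and Khsrp, another decay factor, fell 2.36-fold. With Cu_TCPP, 4 of the 15 rose (7 with offsets for gene length), among them Zfp36l2, from 377 to 855 CPM, and 2 fell. Beside these list counts, Au_TCPP raised 34.4% and lowered 34.7% of all genes, and Cu_TCPP raised 19.2% and lowered 21.2%.

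Among 11 genes of cytokine processing and release, Au_TCPP raised 3 and lowered 5, where it raised 34.4% and lowered 34.7% of all genes. Casp1, the protease that matures IL-1β, fell 1.47-fold with Cu_TCPP and rose 2.60-fold with Au_TCPP, from 7.82 to 20.4 CPM; the fall was not called without Control replicate 1 or without Cu_TCPP replicate 2 (edgeR adjusted p at most 0.056). Adam17, the protease that sheds TNF, fell 1.72-fold with Au_TCPP. Against Cu_TCPP, 6 were higher and 5 lower, and the 6 became 1 with library totals alone. All genes tested had 34.6% higher and 31.3% lower there.

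Of 37 other interleukins and haematopoietic cytokines, 34 were listed in the table and 14 were tested. Cu_TCPP raised 5 and lowered 7, and Au_TCPP raised 4 and lowered 4 (8 lower with library totals alone, 7 with offsets for gene length). Over all genes tested, Cu_TCPP raised 19.2% and lowered 21.2%, and Au_TCPP raised 34.4% and lowered 34.7%. Clcf1, another ligand of the gp130 family, had 34.9 CPM in Control, 57.1 in Cu_TCPP and 177 in Au_TCPP, and rose with both. Il24 also rose with both, from 30.9 to 92.7 and 105 CPM. Tslp, an epithelial alarm cytokine, had 10.1, 2.76 and 9.53 CPM and fell 3.65-fold with Cu_TCPP; Au_TCPP against Control gave a log2 fold change of -0.08 (adjusted p = 0.70). Il34, the other ligand of CSF1R, rose 2.02-fold with Cu_TCPP, in the libraries where Csf1 fell, and Au_TCPP against Control gave 0.05 (adjusted p = 0.74). Of 16 TNF superfamily ligands 2 were tested, and Tnfsf9 rose from 5.96 to 30.6 CPM with Au_TCPP. Tnfsf13, which encodes APRIL, had 3.12 CPM in Control, 0.569 in Cu_TCPP and 1.67 in Au_TCPP. It fell 5.40-fold with Cu_TCPP (edgeR adjusted p = 0.00012) and 1.86-fold with Au_TCPP (adjusted p = 0.023), the latter a call lost without Control replicate 2, Au_TCPP replicate 1 or Au_TCPP replicate 3 (adjusted p at most 0.080).

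**Figure D5:**
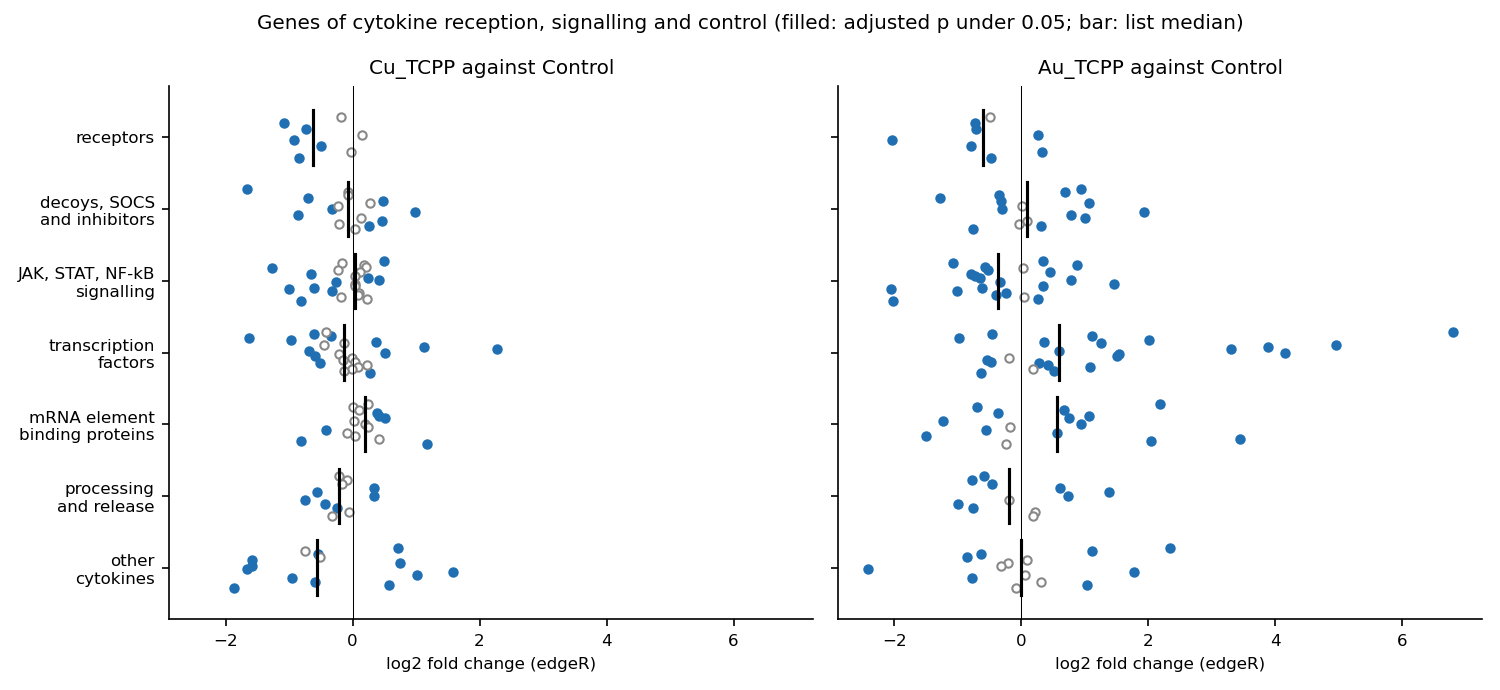
Log2 fold change (horizontal axes) of the tested genes in 7 gene lists (vertical axis) for Cu_TCPP and Au_TCPP, each against Control; filled points had an adjusted p under 0.05, and bars are list medians. Most tested receptor genes lie below 0 in both panels, and among the transcription factors Atf3, Fos and Jun lie farthest to the right with Au_TCPP.

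Markers of cells that could add cytokine RNA were summed. The 16 macrophage and monocyte markers held 41.1 to 44.1 CPM in Control, 27.9 to 31.2 in Cu_TCPP and 79.9 to 98.8 in Au_TCPP, and this sum moved in the direction of Csf2, Il1a and Il23a. It came mostly from Cd68 and Cd14, and of the 16 markers 3 were tested. Cd68 fell with Cu_TCPP (log2 -1.26) and rose with Au_TCPP (log2 1.18), and Cd14 rose with Au_TCPP (log2 0.75). Mrc1, the gene of the mannose receptor, had 2.25 CPM in Control and rose with both, to 5.92 in Cu_TCPP (log2 1.39, edgeR adjusted p = 0.016) and 6.10 in Au_TCPP (log2 1.43, adjusted p = 0.0081), so with Cu_TCPP it went against the sum. Its call for Cu_TCPP was lost without Control replicate 2 and in 1 of 2 limma tests on FPKM (levels per length and library size), and that for Au_TCPP in the other (adjusted p at most 0.067). Adgre1, Ccr2, Marco, Msr1, C1qa and C1qb were at 0 in all 9 libraries. Neutrophil markers held 1.24 to 2.14, 0.964 to 1.64 and 3.29 to 5.32 CPM, with Ly6g, Retnlg and Mmp8 at 0. Of these, S100a8 and Ltf were tested. S100a8 rose 5.07-fold with Au_TCPP against Control (edgeR adjusted p = 0.00044), from 0.401 to 2.07 CPM. Ltf had 0.987 CPM in Control, 0.273 in Cu_TCPP and 1.96 ± 1.14 in Au_TCPP. It fell 3.50-fold with Cu_TCPP (edgeR adjusted p = 0.023), and Au_TCPP against Control (log2 0.99) was not called. Against Cu_TCPP it was 6.98-fold higher with Au_TCPP (edgeR adjusted p = 0.00041). S100a8 and Ltf were the 2 neutrophil markers called higher there, and 1 remained with library totals alone or with offsets for gene length. Lymphocyte markers held 1.78 to 2.41, 0.796 to 1.70 and 2.02 to 4.58 CPM, with Cd3d, Trbc2 and Ms4a1 at 0. Lck, a kinase of T cells and the lymphocyte marker that was tested, had 1.62 CPM in Control, 1.17 in Cu_TCPP and 2.91 in Au_TCPP. It was higher with Au_TCPP than with Cu_TCPP (log2 1.31, adjusted p = 0.0045). Against Control its log2 fold change of 0.83 (adjusted p = 0.040) lost its call under 10 of 19 alternatives, among them leaving out any Control library, Cu_TCPP replicate 3, or Au_TCPP replicate 2 or 3 (adjusted p at most 0.30). The part of these markers in the results was not tested. Fibroblast markers held 35.9 to 41.2, 16.5 to 20.1 and 27.4 to 32.3 CPM, endothelial markers 61.3 to 66.9, 49.0 to 55.6 and 39.7 to 47.3 CPM, and mast cell markers at most 0.473 CPM. The 14 epithelial markers, which define the labelled carcinoma, held 3094 to 3363, 2961 to 3306 and 4618 to 5552 CPM. Of these, 10 were tested. Cu_TCPP lowered 6 and raised 1. Au_TCPP raised 8 (4 with library totals alone) and lowered 2 (1 with offsets for gene length). Over all genes tested, Cu_TCPP raised 19.2% and lowered 21.2%, and Au_TCPP raised 34.4% and lowered 34.7%. RNA of the hormone receptor Pgr had 0 counts in Control and Cu_TCPP, while Erbb2 had 59.9 CPM and Esr1 10.3 CPM in Control. Erbb2 fell 2.61-fold with Au_TCPP, to 22.9 CPM (edgeR adjusted p = 8.0e-09), and was not called with Cu_TCPP. Esr1 fell 1.94-fold with Cu_TCPP (adjusted p = 0.00067) and 1.56-fold with Au_TCPP (adjusted p = 0.0048). With offsets for gene length, 1 gene of this list was lower with Au_TCPP and 1 higher with Cu_TCPP.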

How the data were processed

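Polyadenylated RNA of 9 libraries of 4T1 cells, 3 per group as their titles give them, was turned into libraries by the QIAseq FX Single Cell RNA kit of QIAGEN and read on a HiSeq2000, per the labels' protocols. Bowtie 0.12.9, Cufflinks 2.1.1, HTSeq and the build mm10 are named in the submitters' processing notes; strand use is not stated there. The deposited table gives raw read counts per gene, per the file headers. FPKM, the counts per length and library size made by the authors, served in 2 alternative tests, per the file headers. The authors also deposited log2 fold changes and adjusted p-values, per the file headers, from a test they do not name. Gene lengths are the authors' values.

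edgeR 4.0.16 (R 4.3.3) tested the counts (TMM, filterByExpr, a robust quasi-likelihood fit with 1 mean for each group over all 9 libraries, Benjamini-Hochberg over 13915 genes). The biological coefficient of variation was 10.6%, 1 value for groups that spread unequally. The mean chi-square per gene of count differences between 2 libraries was 2.61 to 4.44 within Control. It was 4.14 to 11.7 within Cu_TCPP and 10.2 to 40.2 within Au_TCPP. For Cu_TCPP against Control, the fit of all 9 libraries called 5617 genes and a fit of its 6 libraries alone 7381. SE is the absolute log2 fold change divided by the square root of F. Cu_TCPP and Au_TCPP were compared with the same Control libraries, so those comparisons are not independent. Ratios of rare genes have exact conditional 95% intervals (scipy 1.17.1), which cover counting error only. The members and gene lists were chosen with earlier results of these data known. Genes were named from a pool set by rule, from which the list genes printed were picked after their values were seen. The pool held all members; per list and comparison the called genes with the smallest p, at most 4, or with none called the gene with the highest mean CPM; the 2 genes nearest to each tested member; and the cytokine genes beside members. Il1rap, Il12b, the subunits of NF-kB and the receptor genes and markers at or near 0 were added after their values were seen. Distances used log2 CPM with a prior count of 2. Alternatives tried were DESeq2 1.42.0, RLE factors, library totals alone, no low-count filter, a minimum of 1 CPM in 3 libraries, fits of a comparison's 6 libraries, a replicate block, limma 3.58.1 on log2(FPKM + 1) and log2(FPKM + 0.1), offsets for gene length (splines with 5 degrees of freedom) and leaving out each library. List counts were recomputed with 4 of these, a choice made after seeing the data. Simulated counts for the 13915 genes were also tested. For each comparison 200 genes were changed, the others had 1 mean in all groups, and no shift in library composition was added. In the order Cu_TCPP against Control, Au_TCPP against Control, Au_TCPP against Cu_TCPP, the fit recovered 80%, 77% and 77% of 2-fold changes. For 1.5-fold changes it recovered 56%, 62% and 58%, with 2, 3 and 6 false calls. These rates do not carry over to the real libraries, where 40.4% to 69.1% of genes were called. Python 3.11.15, numpy 2.4.6, pandas 2.3.3 and matplotlib 3.10.9 were used.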

Additional observations from a re-analysis of the deposited data

How the results depend on the processing

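The numbers of genes and of members called stayed within 1.5 times the reported ones under all alternatives run. Leaving out 1 library at a time gave 4226 to 7179 genes called for Cu_TCPP against Control and 8859 to 10109 for Au_TCPP against Control. The direct comparison of both materials gave 8521 to 9622. In the same order 3 to 4, 7 to 8 and 6 to 7 members were called. The member counts of both comparisons with Au_TCPP, here and for the replicate block below, include Il6, which had to differ. Of 452 alternative log2 fold changes of members, 426 kept their direction and their side of the threshold. Those that changed direction were all of uncalled values or of Lif. With offsets for gene length, Cu_TCPP against Control became 0.027 for Csf3, 0.026 for Il11 and 0.023 for Lif. Leaving out 1 library, the same comparison gave -0.26 (without Cu_TCPP replicate 2) to 0.25 (without Control replicate 2) for Il11, also above 0 without Cu_TCPP replicate 3 (0.049), and 0.0057 for Lif without Cu_TCPP replicate 1. With library totals alone, Lif became -0.028 for Au_TCPP against Cu_TCPP and -0.14 for Au_TCPP against Control. Why these changed was not tested. Lif for Au_TCPP against Control was called with no low-count filter (adjusted p = 0.048) and with offsets for gene length (adjusted p = 0.024), by edgeR. Of 408 alternative counts of list genes, 50 moved by over 1.5 times, most of them counts of few genes.

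Same-numbered libraries deviated little together, with correlations of their deviations from the group means between -0.085 and 0.090. For Cu_TCPP against Control, replicates 1 and 3 (0.090 and 0.044) were above the highest with another number (-0.008 and -0.018). Replicate 2 was not (0.024 against 0.039). In both comparisons with Au_TCPP, replicate 2 alone was above it. As all values were small, the numbers are not taken to pair the samples. With a replicate block, 5508, 9505 and 9059 genes and 4, 7 and 7 members were called in the same order of comparisons. Depth limits Il6, Il33 and Tnf, which had under 20 counts in every library.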
